A study of Mus musculus with 70 samples.

Results

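Ly6C-high monocytes and B cells from the blood of unstressed mice were compared, using the 12 RNA-seq libraries whose labels read CON together with one of those 2 sorted cell types. There were 6 libraries of each cell type among 70 in the series. The mice were C57BL/6J males that underwent no defeat and shared a divided cage with another control before single housing. Like the defeated mice, they took a social interaction test, in which a mouse of the aggressors' strain was held in a meshed enclosure. No transgene or drug is named for either group. Per the study's methods, trunk blood leukocytes were stained for CD11b, Ly6C, Ly6G, B220 and CD90.2 and sorted by flow cytometry. The source field of the labels reads Brain, whereas the series' design text and the methods describe blood. The sources used here do not say whether cells of several mice were pooled in a library or when each library was made, so the p-values measure the spread between these libraries.

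Ly6C-high monocytes, also called classical or inflammatory monocytes, are short-lived myeloid cells that leave the blood for inflamed tissue, where they engulf particles, release cytokines and can become macrophages or dendritic cells. B cells are lymphocytes that recognise intact antigen through a surface immunoglobulin joined to the signalling chains CD79A and CD79B, take it up, and show peptides of it to helper T cells on MHC class II. Both descend from the blood stem cell through progenitors that use the transcription factor PU.1, and both belong to the cells that can present antigen. Blood holds mainly resting, recirculating follicular B cells.

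Each library held 31816523 to 42074062 counts over all genes. Levels are given as counts per 1000000 counts (CPM) after trimmed-mean (TMM) scaling of the 12 libraries, with the lowest, the median and the highest of 6 libraries. Log2 fold changes are Ly6C-high monocytes minus B cells with a standard error (SE), and adjusted p-values are Benjamini-Hochberg values from edgeR's quasi-likelihood test over 16435 genes. A gene was called when the adjusted p was below 0.05 and the log2 fold change was beyond 1 in either direction. Where a gene had 1 to 3 reads in all 6 libraries of a cell type, the ratio of the higher to the lower cell type is given with a counting interval, and where it had none, a lower bound against a floor of 3 reads over the group. A gene was said to be at a like level when the whole 95% interval of its log2 fold change lay between -1 and 1.

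The labels were first set against the genes that mark each cell type. Ly6c2, one of the genes for the Ly6C antigen used in the sort (chromosome 15, 75108158 to 75111970 on GRCm38), was at 234 to 286 CPM (median 247) in Ly6C-high monocytes and 0.693 to 4.11 CPM (median 2.07) in B cells. Ccr2, the chemokine receptor through which these monocytes leave the bone marrow, was at 1426 to 2379 CPM (median 1988) and 0.182 to 3.59 CPM (median 1.33), a log2 fold change of 10.27 ± 0.53 (SE; edgeR adjusted p = 5.37e-09). Cd79a, which encodes a signalling chain of the B cell receptor, was at 0.0831 to 2.20 CPM (median 0.493) in monocytes and 1388 to 1537 CPM (median 1468) in B cells, a log2 fold change of -10.84 ± 0.63 (SE; edgeR adjusted p = 1.51e-08). The 2 cell types did not overlap for any of these markers. Itgam, which encodes CD11b, was at 212 to 286 CPM in monocytes and 0.285 to 1.09 CPM in B cells. Thy1, which encodes CD90, stayed at 0.0277 to 3.16 CPM and 0.191 to 1.46 CPM. Because Ly6C and CD11b were among the antigens stained for the sort, the differences of Ly6c2, Ly6c1 and Itgam check the labels and are not findings, and Ly6c1 and Ly6c2 are near-identical copies between which the counting could split reads.

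Summed markers of T cells, NK cells and platelets overlapped between the 2 groups, and those of the other blood cells listed did not. Platelet markers summed to 48.2 to 76.0 CPM in monocytes and 45.2 to 73.6 CPM in B cells. NK cell markers summed to 3.32 to 43.3 CPM and 3.07 to 7.01 CPM. Dendritic cell, Ly6C-low monocyte and plasma cell sums were higher in monocytes. Their means were 139, 943 and 199.6 CPM against 12.3, 75.9 and 77.6 CPM in B cells. The plasma cell sum in monocytes was mostly Xbp1, at 144 to 199 CPM. Of 8 T cell markers none averaged 1 CPM in monocytes and 1 did in B cells, with summed levels of 0.438 to 5.79 CPM and 2.30 to 5.44 CPM. The 8 neutrophil markers summed to 13.8 to 346 CPM in monocytes and 0 to 0.776 CPM in B cells, and the defining gene Ly6g was at 0 in every B cell library and too low to test. All 7 red cell markers were called higher in B cells, with sums of 1275 to 7558 CPM against 329 to 1152 CPM. Of 10 brain markers 7 were too low to test, and the summed level of 311 to 394 CPM in monocytes was nearly all Mbp, at 303 to 389 CPM against 58.9 to 68.9 CPM in B cells. Mitochondrial transcripts took 8.49% to 11.4% of the counts in monocytes and 6.18% to 18.4% in B cells, the top value being B cell replicate 38. The B cell shares were 10.5% to 18.4% in replicates 35, 38 and 41 and 6.18% to 7.16% in replicates 44, 47 and 50. The 2 genes that overlap ribosomal RNA repeats, Gm23935 and Gm26917, took 0.739% to 8.03% of counts in monocytes and 11.1% to 32.6% in B cells. That difference moved with cell type (exact permutation test, 6 against 6, two-sided p = 0.00216, adjusted p = 0.00325 over 12 library measures), 0.00216 being the smallest value this design allows. With these 2 genes and all mitochondrial, hemoglobin and immunoglobulin genes removed before scaling, 2851 genes were called higher in monocytes and 2407 higher in B cells, and 5224 of the 5255 calls that could still be tested were kept, with 0 reversed.

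Of the 16435 genes tested, 2881 were called higher in Ly6C-high monocytes (17.5%) and 2587 higher in B cells (15.7%), together 33.3%. Another 4360 genes (26.5%) were at a like level, and 3874 of those averaged at least 10 CPM in both cell types (23.6%). Of all 6697 genes that averaged at least 10 CPM in both cell types, those 3874 were 57.8%. These percentages are the background for the counts of called and like-level genes below. In 2520 of the genes higher in monocytes and 2170 of those higher in B cells, no library of one cell type overlapped the other. The number without overlap among all tested genes is not given here. These counts therefore have no background to be read against and only describe the called genes. The median log2 fold change of all genes was -0.03. With library totals in place of TMM factors the median moved to 0.22 and 64.2% of the calls, rather than 52.7%, were higher in monocytes. The libraries of a cell type resembled each other closely, with Pearson correlations of log2 CPM across genes of 0.940 to 0.971 among monocytes and 0.941 to 0.975 among B cells, against 0.707 to 0.740 between the cell types.

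**Figure D1:**
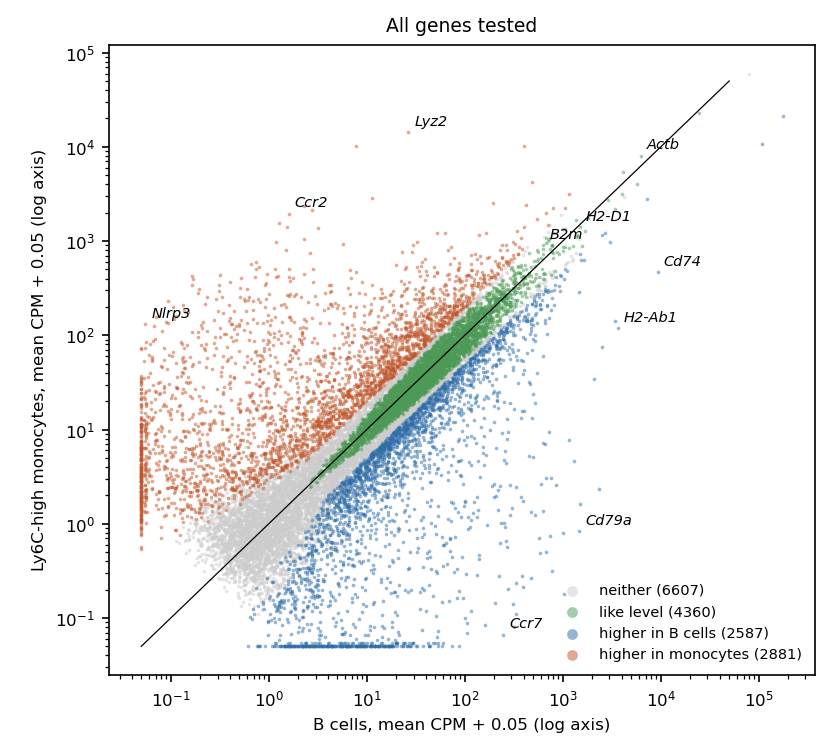
Mean level of each tested gene in Ly6C-high monocytes (vertical axis) and B cells (horizontal axis), both as TMM-scaled CPM plus 0.05 on log axes, one point per gene, colored by call, with the line of equal levels. Lyz2 and Ccr2 lie far above the line, Cd74 and Cd79a far below it, and Actb and H2-D1 near it; 2881 genes were called higher in monocytes and 2587 higher in B cells.

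The 5 genes furthest toward monocytes, among protein-coding genes above 100 CPM with no overlap, were Nlrp3, Msr1, Olfm1, Lilrb4a and Ptpro. Nlrp3, the sensor of the inflammasome that matures interleukin-1 beta, was at 109.7 to 153 CPM (median 131) in monocytes and had 1 read in all B cell libraries together, a ratio of 27949.7 (95% counting interval 5016 to 1103990.0). Msr1, a scavenger receptor for modified lipoproteins, was at 123 to 219 CPM (median 150.3) against 0 to 0.0632 CPM, a log2 fold change of 12.78 ± 0.32. Lilrb4a, an inhibitory receptor of myeloid cells, was at 206 to 253 CPM (median 238) against 0 to 0.172 CPM, a log2 fold change of 12.06 ± 0.33. These receptors were at or near 0 in every B cell library. Ptpro, a receptor tyrosine phosphatase, was at 357 to 439 CPM in monocytes and 0 to 0.594 CPM in B cells. Olfm1, which encodes a secreted olfactomedin-domain protein, was at 92.7 to 148 CPM and 0 to 0.0430 CPM.

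The 5 genes furthest toward B cells by the same rule were Ccr7, Blk, Fcmr, S1pr1 and Pax5. Ccr7, the receptor that guides lymphocytes into lymph nodes, was at 209 to 283 CPM in B cells (median 248) and had 4 reads in the 6 monocyte libraries together, a log2 fold change of -13.56 ± 0.22 (SE; edgeR adjusted p = 3.16e-17). Fcmr, the receptor for the Fc part of IgM, was at 909.9 to 1100.3 CPM (median 1064) against 0 to 0.268 CPM in monocytes. S1pr1, the sphingosine-1-phosphate receptor used to leave lymphoid tissue, was at 282 to 352 CPM (median 319) against 0 to 0.288 CPM. The B cell and monocyte libraries were far apart for all 5. Ccr7 and S1pr1 were also expressed in the 6 unstressed T cell libraries, at mean levels of 364 and 572 CPM when all 22 unstressed libraries were scaled together.

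**Figure D2:**
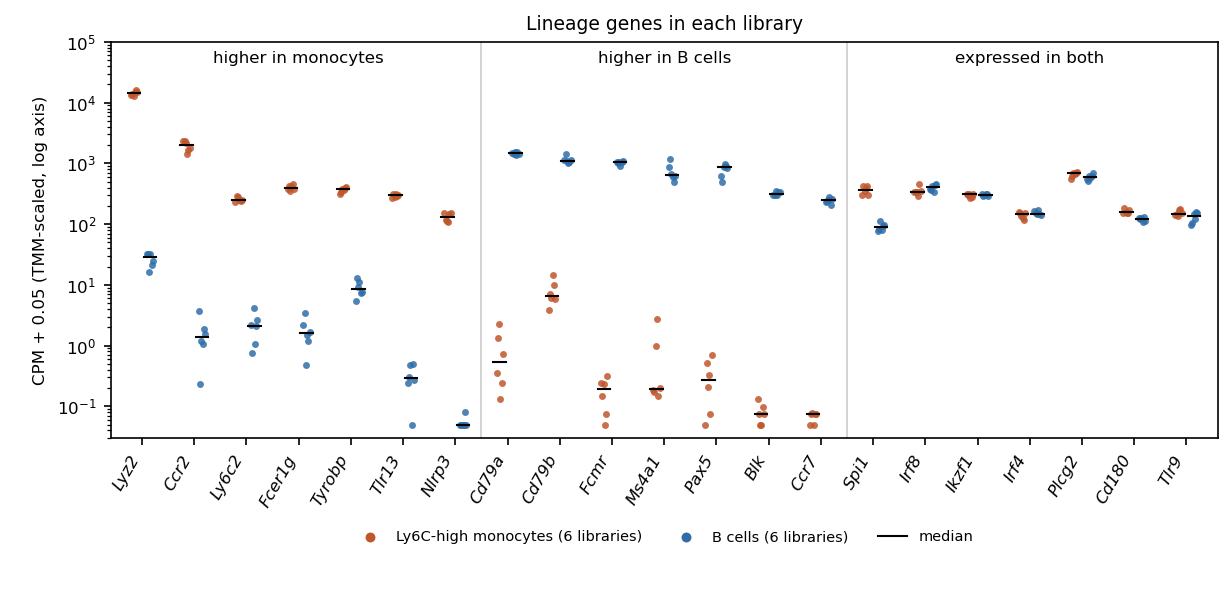
CPM plus 0.05 (TMM-scaled, log axis) of 21 genes in each of the 6 Ly6C-high monocyte and 6 B cell libraries, one point per library with the median as a bar. The first 7 genes lie above B cells in every monocyte library, the next 7 above monocytes in every B cell library, and of the last 7 only Spi1 was called, at a log2 fold change of 2.02.

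The transcription factors that set up each lineage split mostly by cell type, with a shared minority. Of 18 myeloid factors, 14 were called higher in monocytes, none higher in B cells and 3 were at a like level. Of 20 B lineage factors, 16 were called higher in B cells, none higher in monocytes and 4 were at a like level. Batf3, a factor needed for cross-presenting dendritic cells, was at 7.57 to 22.6 CPM (median 11.7) in monocytes against 3 reads in all B cell libraries together, a ratio of 916 (95% counting interval 313 to 4445). Spi1, which encodes PU.1 and serves both lineages at different doses, was at 297 to 426 CPM (median 371) in monocytes and 76.4 to 112 CPM (median 88.0) in B cells, a log2 fold change of 2.02 ± 0.12. Spi1 and Egr1, an immediate early gene at 20.4 to 28.0 CPM against 4.62 to 17.8 CPM, were the smallest of the called myeloid differences. Cebpa, the factor that directs progenitors to the granulocyte and monocyte path, was at 88.4 to 179 CPM against 0.0215 to 0.994 CPM.

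Pax5, which commits progenitors to the B lineage and keeps them there, was at 485 to 973 CPM (median 859.5) in B cells and 0 to 0.658 CPM (median 0.217) in monocytes, a log2 fold change of -11.50 ± 0.55 (SE; edgeR adjusted p = 2.48e-09). Pou2af1, the B cell coactivator of octamer factors, was at 302 to 462 CPM (median 412) in B cells and 0 to 0.728 CPM (median 0.0521) in monocytes, a log2 fold change of -11.18 ± 0.58. Ebf1, which acts upstream of Pax5, was at 224 to 307 CPM against 0 to 0.534 CPM. Every one of these B cell libraries lay far above every monocyte library. The smallest called differences were those of Klf2, a factor of lymphocyte quiescence, at 449 to 782 CPM (median 619) against 209 to 266 CPM (median 241), and Relb, a subunit of the alternative NF-kappaB pathway, at 54.9 to 92.4 CPM (median 79.9) against 16.4 to 42.8 CPM (median 25.9). Klf2 had a log2 fold change of -1.37 ± 0.15 and Relb of -1.47 ± 0.20. The B cell levels of Klf2 fell into 2 blocks, 449 to 499 CPM in replicates 35, 38 and 41 and 740 to 782 CPM in replicates 44, 47 and 50. No B cell library lay near the Klf2 median, and the source of the split was not tested.

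Another set of factors was expressed by both cells. Irf8, which has roles in monocyte, dendritic and B cells, was at 290.4 to 456 CPM (median 341) in monocytes and 334 to 452 CPM (median 402) in B cells, with a 95% interval of the log2 fold change from -0.41 to 0.05. Ikzf1, which encodes Ikaros, was at 273 to 318 CPM (median 308) and 291 to 315 CPM (median 307), with an interval from -0.18 to 0.14. Irf4 was at 118 to 157 CPM (median 145) and 143 to 172 CPM (median 148), with an interval from -0.32 to 0.08. For these genes the libraries of the 2 cell types overlapped. Pou2f2, the octamer factor that Pou2af1 assists, was also at a like level at 168 to 217 CPM and 139 to 258 CPM, while its coactivator was near 0 in monocytes. Bcl6, a repressor best known from germinal centre B cells, was at 127 to 200.1 CPM and 88.7 to 146 CPM.

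B cell receptor genes were among the clearest B cell differences. Of 16 genes for the receptor and its coreceptors, 15 were called higher in B cells, none higher in monocytes, and Cd180 was at a like level. Their median log2 fold change was -8.15, against -0.03 for all genes. Vpreb3, a chaperone of the immunoglobulin light chain, was at 41.5 to 55.2 CPM (median 46.3) in B cells and had 1 read in all monocyte libraries, a ratio of 11151 (95% counting interval 2001 to 440474). Ighm, the constant region of IgM, was at 3134 to 3935 CPM (median 3381) in B cells and 125 to 165 CPM (median 141) in monocytes, a log2 fold change of -4.57 ± 0.10. Cd81, a tetraspanin, was at 113 to 147 CPM (median 138) in B cells and 0.582 to 4.09 CPM (median 1.54) in monocytes, a log2 fold change of -6.16 ± 0.38. Of the called members, Ighm thus had the highest CPM in monocytes. Ighd, the constant region of IgD, was at 1394 to 1608 CPM in B cells against 0.249 to 3.59 CPM in monocytes. Cd180, an LPS-related receptor, was at 151 to 181 CPM (median 156) in monocytes and 106 to 129 CPM (median 122) in B cells, a log2 fold change of 0.43 ± 0.09.

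Receptors that position B cells and keep them alive followed the same direction. Of 17 homing and survival receptors, 15 were called higher in B cells and 2 were at a like level, among them the integrin chain Itgb7. Cxcr5, which draws B cells into follicles, was at 428 to 516 CPM in B cells and 0.0239 to 0.681 CPM in monocytes. Tnfrsf13c, the receptor for the survival factor BAFF, was at 141 to 273 CPM and 0 to 0.390 CPM. Cxcr4, the receptor for the bone marrow chemokine CXCL12, was at 121 to 229 CPM (median 165) in B cells and 40.7 to 73.9 CPM (median 52.2) in monocytes, a log2 fold change of -1.66 ± 0.16. Gpr183, a receptor for oxysterols, was at 116 to 147 CPM (median 127) and 43.7 to 57.8 CPM (median 48.0), a log2 fold change of -1.39 ± 0.10. Cxcr4 and Gpr183 were thus expressed by both cells at unequal levels.

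The 2 cell types differed in the adaptors that carry an immunoreceptor tyrosine-based activation motif (ITAM) or a related motif. Of 9 listed adaptors 7 could be tested. Fcer1g, the shared chain of activating Fc receptors, was at 356 to 455 CPM (median 401) in monocytes and 0.430 to 3.39 CPM (median 1.55) in B cells, a log2 fold change of 7.91 ± 0.38 (SE; edgeR adjusted p = 8.69e-10). Tyrobp, which encodes DAP12, was at 319 to 408 CPM (median 372) and 5.31 to 12.8 CPM (median 8.44), a log2 fold change of 5.37 ± 0.19. Cd79b was at 3.84 to 14.2 CPM (median 6.49) in monocytes and 1013 to 1439.9 CPM (median 1116) in B cells, a log2 fold change of -7.20 ± 0.32. No library of one cell type reached the other for these genes or for Cd79a. Hcst, which encodes DAP10, was low in both, at 6.17 to 11.2 CPM (median 6.60) and 1.72 to 6.48 CPM (median 3.42), and its call (log2 fold change 1.04 ± 0.36, edgeR adjusted p = 0.0225) was lost when any one of monocyte replicates 10 or 16 or B cell replicates 35, 38 or 50 was left out. The T cell chains Cd3d and Cd247 were at most 3.53 CPM and were not called, and Cd3e and Cd3g were too low to test.

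Downstream of these chains the kinases of the Src family differed in kind. Of 8 members 6 could be tested, of which 3 were called higher in monocytes, 2 higher in B cells and Fyn was at a like level. Fgr was at 446 to 592 CPM (median 533) in monocytes and 15.4 to 32.2 CPM (median 27.7) in B cells, a log2 fold change of 4.40 ± 0.17. Lyn, which phosphorylates receptors in both lineages, was at 628 to 729.8 CPM (median 647) and 279 to 367 CPM (median 319), a log2 fold change of 1.07 ± 0.09. Lyn was thus high in both cells, whereas Blk was at 298 to 345 CPM (median 319) in B cells and had 7 reads in all monocyte libraries, a log2 fold change of -13.24 ± 0.24. Lck, the kinase best known from T cells, was at 11.1 to 21.3 CPM (median 16.0) in B cells and 0.0478 to 3.30 CPM (median 0.416) in monocytes, a log2 fold change of -4.08 ± 0.80. Among the Tec kinases, Bmx was at 17.7 to 28.5 CPM (median 21.1) in monocytes and 0 to 0.688 CPM (median 0) in B cells. Btk was at 59.1 to 90.3 CPM (median 80.7) and 147 to 197 CPM (median 155), a log2 fold change of -1.04 ± 0.11, and Tec at 44.8 to 73.8 CPM (median 64.9) and 99.6 to 147 CPM (median 125), a log2 fold change with a 95% interval from -1.27 to -0.73, so that both calls toward B cells sat at the threshold.

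The cascade between receptor and nucleus held called and like-level members. Of 23 antigen receptor signalling genes, which include Lyn, Blk and Btk, 3 were called higher in monocytes, 10 higher in B cells and 10 were at a like level, so 56.5% were called, against 33.3% of all genes, and 43.5% were at a like level, against 26.5%. Among members with at least 10 CPM in both cells, 10 of 18 were at a like level, 55.6% against 57.8% of all such genes. The like-level members were Plcg2, Vav1, Pik3cd, Pik3r1, Dapp1, Malt1, Bcl10, Ptpn6, Inpp5d and Nfatc1. Plcg2, the phospholipase that makes the calcium signal, was at 558 to 709 CPM (median 687) in monocytes and 519 to 685 CPM (median 599.8) in B cells, with a 95% interval of the log2 fold change from -0.04 to 0.34. Inpp5d, which encodes the phosphatase SHIP-1, was at 335 to 424 CPM (median 370.1) and 268 to 383 CPM (median 348), with an interval from -0.07 to 0.36. For both genes the libraries overlapped. The members higher in B cells were led by the scaffold Blnk, at 155 to 269 CPM (median 238) in B cells and 0.0277 to 1.00 CPM (median 0.0758) in monocytes, a log2 fold change of -9.87 ± 0.61. Syk, the kinase that docks on phosphorylated ITAMs, was abundant in both at 627 to 807 CPM in monocytes and 1370.1 to 1642 CPM in B cells, a log2 fold change of -1.04 ± 0.09. Higher in monocytes were Ptpn22, a phosphatase that restrains antigen receptors, at 123 to 142 CPM (median 133) against 26.8 to 40.7 CPM (median 30.1), the adaptor Cd2ap at 154 to 229 CPM (median 185) against 67.3 to 99.9 CPM (median 72.1), and Lyn.

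**Figure D3:**
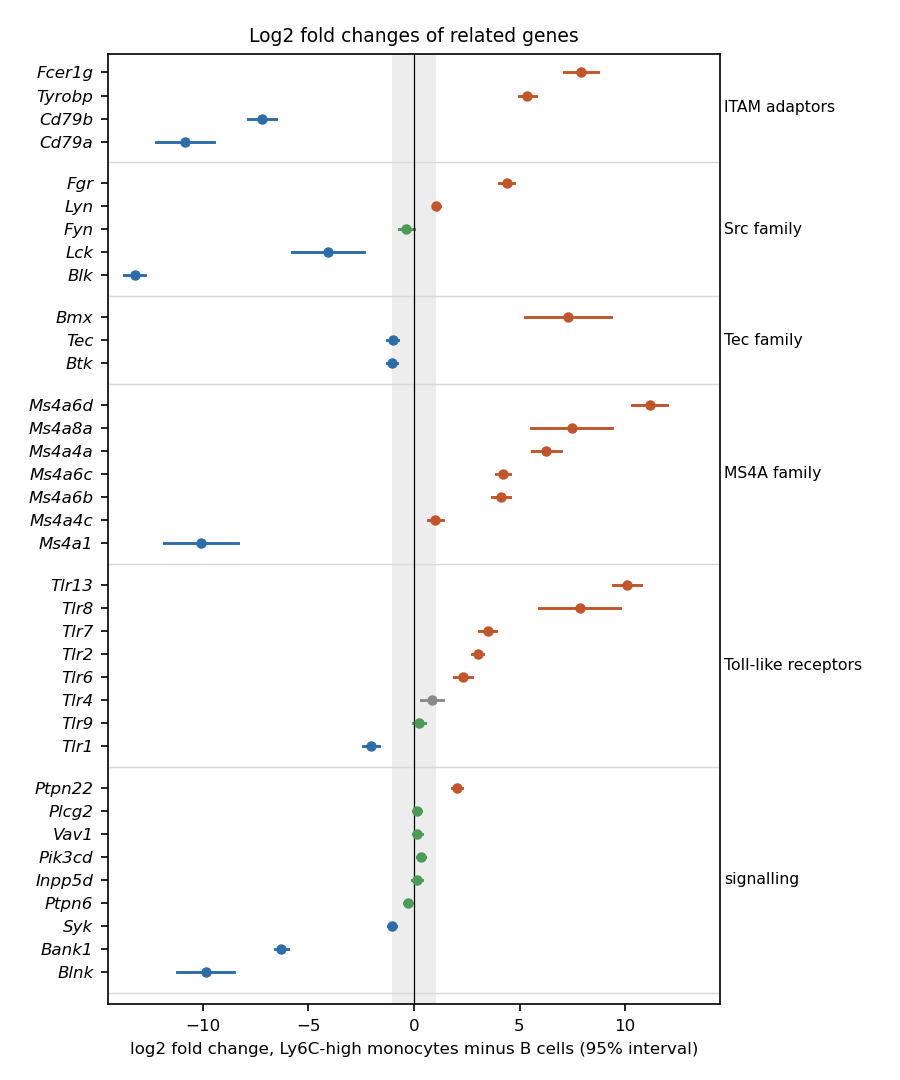
Log2 fold change, Ly6C-high monocytes minus B cells, with its 95% interval for related genes in 6 groups; points to the right are higher in monocytes, the grey band spans -1 to 1, and colors give the call (orange higher in monocytes, blue higher in B cells, green like level, grey neither). Within the adaptors, Src kinases, MS4A genes and Toll-like receptors members lie on both sides, from 7.91 for Fcer1g to -10.84 for Cd79a among the adaptors, while Plcg2, Vav1, Pik3cd, Inpp5d and Ptpn6 lie inside the band.

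The MS4A family, tetraspanning membrane proteins that include CD20, divided in the same way. Of 15 genes 10 could be tested, 8 were called higher in monocytes and 1, Ms4a1, higher in B cells. Ms4a1, which encodes CD20, was at 504 to 1182 CPM (median 642) in B cells and 0.0956 to 2.72 CPM (median 0.142) in monocytes, a log2 fold change of -10.10 ± 0.81 (SE; edgeR adjusted p = 3.58e-07). Ms4a6d was at 26.8 to 54.7 CPM (median 39.2) in monocytes and had 3 reads in all B cell libraries, a ratio of 2832 (95% counting interval 969 to 13736). Ms4a8a was at 40.0 to 55.9 CPM (median 44.3) in monocytes and 0 to 1.14 CPM (median 0.0149) in B cells, a log2 fold change of 7.47 ± 0.87. The family thus had its called members on both sides, and Ms4a4c was high in both cells at 136 to 247 CPM (median 183) and 60.2 to 128 CPM (median 84.4), a log2 fold change of 1.01 ± 0.17. Several members are close copies of each other, and the handling of reads that match more than one gene is not given in the sources used here.

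Genes by which monocytes detect microbes were mostly monocyte genes, with exceptions among the Toll-like receptors. Of 26 pattern recognition genes 18 were called higher in monocytes, 2 higher in B cells and 4 were at a like level. Clec7a, the beta-glucan receptor dectin-1, was at 405 to 475 CPM (median 419) in monocytes and 0 to 0.328 CPM (median 0.0476) in B cells, a log2 fold change of 11.90 ± 0.37. Tlr13, a receptor for bacterial ribosomal RNA, was at 266 to 309.7 CPM against 0 to 0.446 CPM. Nod1, a cytosolic sensor of peptidoglycan, was at 112 to 154 CPM (median 131) and 46.0 to 65.0 CPM (median 63.0), a log2 fold change of 1.14 ± 0.11. The 2 exceptions were Tlr1, at 57.5 to 82.6 CPM (median 68.2) in B cells and 9.81 to 25.5 CPM (median 16.5) in monocytes, a log2 fold change of -2.04 ± 0.19, and Tlr12, at 3.57 to 6.42 CPM (median 5.19) and 0 to 2.33 CPM (median 0.472), a log2 fold change of -2.83 ± 0.90. Tlr9, the receptor for unmethylated CpG DNA, was expressed alike at 135 to 176 CPM (median 148) in monocytes and 97.8 to 160.1 CPM (median 134) in B cells, with a 95% interval from -0.04 to 0.50. Cd180, its partner Ly86 and Ticam1 were at a like level too.

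Of 16 tested Fc, complement and scavenger receptors, 13 were called higher in monocytes, 1 higher in B cells and 1, Cd36, was at a like level. The 13 include Itgam, a target of the sort that only checks the labels. The antibody receptor genes Fcmr and Fcer2a, which stand in other lists, were higher in B cells. Fcgr1, the high-affinity IgG receptor, was at 70.7 to 95.7 CPM (median 79.0) in monocytes and had 3 reads in all B cell libraries, a ratio of 5761 (95% counting interval 1971 to 27940.5). Fcgr2b, the inhibitory IgG receptor that both cells are known to carry, was at 172 to 219 CPM (median 182) in monocytes and 86.6 to 99.4 CPM (median 92.1) in B cells, a log2 fold change of 1.03 ± 0.09. Itgb2, the common chain of the beta2 integrins, was at 1021 to 1295 CPM (median 1169.8) and 122 to 152 CPM (median 143), a log2 fold change of 3.06 ± 0.09. Fcgr2b was thus the only Fc receptor of the list above 10 CPM in B cells. The exception in direction was Cr2, the complement receptor CD21 of mature B cells, at 241 to 379 CPM (median 282) in B cells and 0 to 3.18 CPM (median 0.963) in monocytes, a log2 fold change of -7.93 ± 0.64.

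Of 23 lysosomal genes 17 were called higher in monocytes, none higher in B cells and 6 were at a like level (26.1%, against 26.5% of all genes). Among members with at least 10 CPM in both cells the share was 6 of 20, 30% against 57.8% of all such genes. Lyz2, the lysozyme of phagocytes, was at 13133 to 16156 CPM (median 14402) in monocytes and 16.0 to 32.6 CPM (median 28.3) in B cells, a log2 fold change of 9.10 ± 0.21 (SE; edgeR adjusted p = 1.61e-15). Per kilobase of exon it was the highest of the listed genes in monocytes, at 10982 CPM per kb. Lyz1, its close copy, was at 38.1 to 53.9 CPM against 0 to 0.365 CPM, and reads could be split between the copies. Ctsd, which encodes cathepsin D, was at 39.1 to 80.2 CPM (median 60.6) and 19.6 to 35.1 CPM (median 28.7), a log2 fold change of 1.18 ± 0.18. The like-level members included Ctse, Ctsh, Ctsz and Lgmn. Of 8 NADPH oxidase genes 3 were called higher in monocytes, 1 higher in B cells and 3 were at a like level. Cybb, the catalytic subunit, was at 2323 to 2831 CPM (median 2467) in monocytes and 168 to 260.5 CPM (median 182) in B cells, a log2 fold change of 3.70 ± 0.12. The small GTPase Rac1 was at 292 to 343 CPM (median 327) and 84.3 to 111 CPM (median 94.8). Hvcn1, the proton channel that balances the charge of the oxidase, was at 228 to 279.8 CPM (median 246) in B cells and 2.86 to 7.00 CPM (median 4.98) in monocytes, a log2 fold change of -5.73 ± 0.19.

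Secreted factors and their receptors followed. Of 17 tested cytokine and chemokine genes 10 were called higher in monocytes and 3 higher in B cells. Ccl6 was at 728 to 890.1 CPM (median 786) in monocytes and 0.477 to 3.26 CPM (median 1.29) in B cells, and Ccl9 at 484 to 585 CPM (median 522) and 0.0297 to 1.33 CPM (median 0.839), both chemokines of myeloid cells. Cxcl10, an interferon-induced chemokine, was at 7.91 to 10.3 CPM in monocytes with no read in B cells, at least 634-fold higher against a floor of 3 reads over the 6 libraries. The lymphotoxins went the other way. Ltb was at 319.7 to 484 CPM (median 374) in B cells and 0.277 to 3.18 CPM (median 1.80) in monocytes, a log2 fold change of -7.85 ± 0.43, and Lta at 13.8 to 20.7 CPM (median 15.5) in B cells with 2 reads in all monocyte libraries, a ratio of 1944 (95% counting interval 538 to 16059). Il16, a chemoattractant for CD4 cells, was at 269 to 312 CPM (median 284) and 104 to 152 CPM (median 127), a log2 fold change of -1.18 ± 0.10. Of 20 cytokine and growth factor receptors 16 were called higher in monocytes and 1 higher in B cells. Tnfrsf1a, a receptor for TNF, was at 221 to 262 CPM (median 249) in monocytes and 0.0636 to 0.558 CPM (median 0.205) in B cells, a log2 fold change of 9.95 ± 0.29. Csf3r, the receptor for G-CSF, was at 329.8 to 513 CPM (median 404) and 0.0365 to 2.32 CPM (median 0.447), a log2 fold change of 9.14 ± 0.62. The one receptor higher in B cells was Il2rg, the common gamma chain, at 67.5 to 103 CPM (median 78.4) against 28.3 to 37.7 CPM (median 29.7), a log2 fold change of -1.40 ± 0.13. Ifngr2 was the smallest called difference toward monocytes, at 179.5 to 231 CPM (median 200.3) and 66.9 to 88.7 CPM (median 78.4).

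Of 8 listed genes of the S100 family 6 were called higher in monocytes, and S100a8 and S100a9 were uneven among monocyte libraries. S100a8 was at 0.801 to 42.8 CPM (median 24.5) in monocytes with 1 read in all B cell libraries, a ratio of 4603 (95% counting interval 826 to 181862), and S100a9 was at 1.31 to 130.2 CPM (median 56.0), with a ratio of 3673 (95% counting interval 1256 to 17812). The low values of both came from monocyte replicate 4, at 0.801 and 1.31 CPM, followed by replicate 7, at 11.5 and 16.9 CPM. The neutrophil granule genes Ltf and Ngp had the same order, at 0.971 and 0.0243 CPM in replicate 4, 15.7 and 30.3 CPM in replicate 7, and 64.5 to 95.1 and 98.01 to 220.3 CPM in the other libraries. The part of other myeloid cells in the S100 values was not tested. Without replicate 4 the log2 fold changes were 11.68 for S100a8 and 11.83 for S100a9. S100a11 was even, at 77.4 to 103 CPM (median 83.1) in monocytes and 29.1 to 51.7 CPM (median 37.4) in B cells, and S100a1 low, at 8.43 to 14.3 CPM (median 10.4) and 0.693 to 3.08 CPM (median 1.49). In trafficking genes, 11 of 14 were called higher in monocytes, among them Cx3cr1, the fractalkine receptor, at 547 to 646 CPM (median 602) against 0.237 to 1.39 CPM (median 0.666). Icam2 and Pecam1 were higher in B cells, Pecam1 at 245 to 305 CPM (median 273) against 7.13 to 10.8 CPM (median 9.71), a log2 fold change of -4.89 ± 0.13, and Icam2 at 81.4 to 99.1 CPM (median 90.8) against 9.64 to 18.0 CPM (median 14.6), a log2 fold change of -2.66 ± 0.15.

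**Figure D4:**
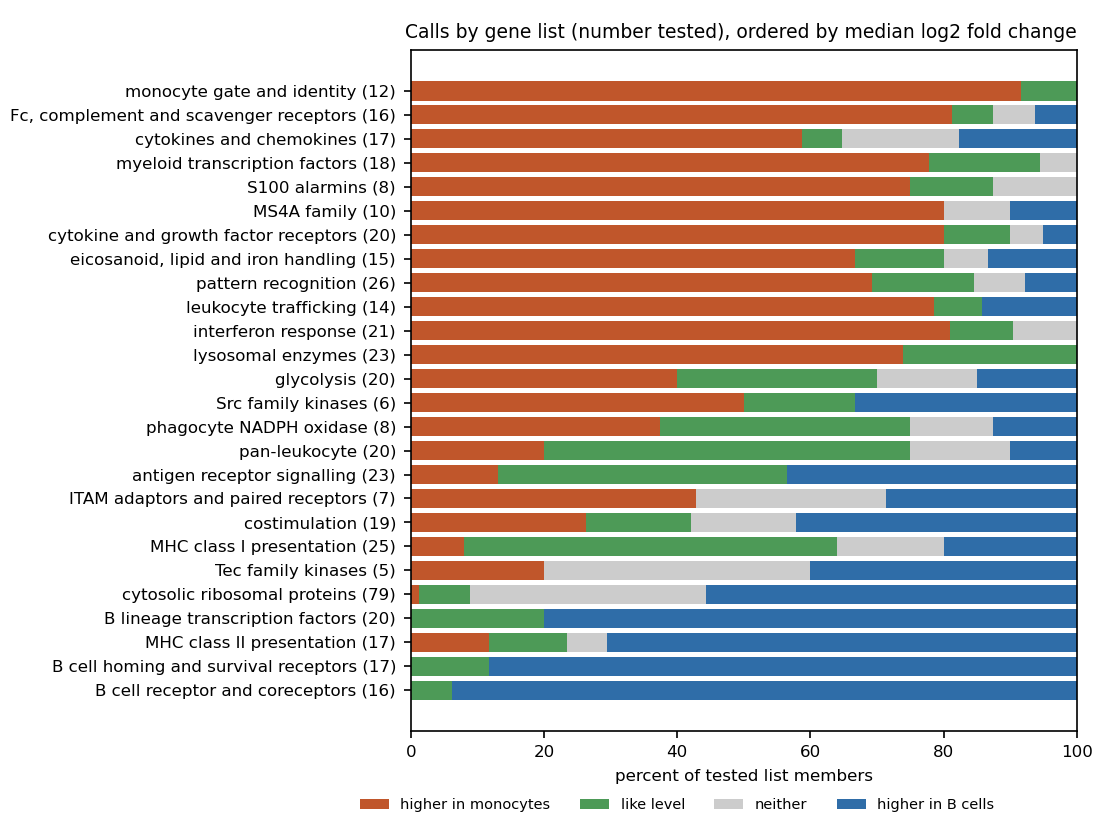
Share of the tested members of each of 26 gene lists that were called higher in Ly6C-high monocytes (orange), at a like level (green), neither (grey) or called higher in B cells (blue), with the number tested in brackets and lists ordered by median log2 fold change. Monocyte identity genes, which include the sort targets Itgam, Ly6c1 and Ly6c2, stand at the top with 11 of 12 called. B cell receptor genes stand at the bottom with 15 of 16. MHC class I and pan-leukocyte lists hold the largest shares at a like level, 56.0% and 55.0% against 26.5% of all tested genes. Among members at 10 CPM or more in both cells these shares were 63.6% and 61.1%, against 57.8% of all such genes.

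Antigen presentation is a function for which both cells are known, and its class I and class II arms were measured separately. MHC class II shows peptides from taken-up antigen: alpha and beta chains assemble with the invariant chain CD74, H2-DM exchanges the bound fragment for peptide, and H2-O holds H2-DM back. Transcription of these genes needs the coactivator CIITA, which joins the RFX factors on a conserved X box and nearby Y box. MHC class I shows peptides from the cell's own proteins, cut by the immunoproteasome and carried by TAP, and its coactivator is NLRC5. Promoter windows of 4 class II genes are shown because these genes carry both runs of letters and all 4 were called higher in B cells, by very unequal amounts.

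Of 18 class II genes 12 had a promoter in the RefSeq table for GRCm38.p6, which spans 250 bases before to 50 after the start. Searched on both strands were an X-box-like run (AAC, any 2 bases, then ATGATG) and a Y-box-like run (TGATTGG), chosen after the class II promoters had been read. The X-like run was present in 0.137% of the 32851 promoters in the table and the Y-like run in 7.82%. The X-like run followed within 40 bases by the Y-like run was present in 4 promoters (0.0122%), all of them class II genes, and in none of the 20 class I genes in the table. In the windows below the capitals mark the X-like run first and the Y-like run second, each sequence running 5' to 3' on the gene's own strand, which is the plus strand, with 15 to 18 bases between the runs, which do not overlap.
H2-Eb1, chr17:34305766-34305824: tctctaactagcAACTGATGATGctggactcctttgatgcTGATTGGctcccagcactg
H2-Ob, chr17:34238808-34238864: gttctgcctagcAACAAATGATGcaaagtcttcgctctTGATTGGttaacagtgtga
H2-DMb1, chr17:34153087-34153146: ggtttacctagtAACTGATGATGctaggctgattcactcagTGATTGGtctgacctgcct
H2-DMb2, chr17:34145116-34145175: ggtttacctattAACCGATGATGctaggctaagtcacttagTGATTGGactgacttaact

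H2-Aa, H2-Eb2, H2-Oa and Rfx5 held the Y-like run alone, as did 10 of the 20 class I genes. These are matches of letters and say nothing of binding. The X-like run is a strict pattern, so a gene without it may still hold an X box. H2-Ab1, Cd74, Ciita, Rfxap, March1 and March8 had no promoter in the table and were not searched. Among the 4 genes with both runs, H2-DMb1 and H2-DMb2, neighbours whose windows have the same spacing of 18 bases, had log2 fold changes of -1.01 and -6.47.

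Of 17 tested class II genes 12 were called higher in B cells, 2 higher in monocytes and 2 were at a like level, with a median log2 fold change of -3.75. Cd74 was at 8371 to 10311 CPM (median 9406) in B cells and 375 to 559 CPM (median 472) in monocytes, a log2 fold change of -4.31 ± 0.11 (SE; edgeR adjusted p = 4.56e-15). H2-Ab1, the I-A beta chain, was at 3194 to 4222 CPM (median 3606) in B cells and 89.4 to 191 CPM (median 105) in monocytes, a log2 fold change of -4.92 ± 0.18. H2-Aa, its alpha partner, was at 2192 to 2850.4 CPM (median 2452) and 59.8 to 121 CPM (median 67.8), a log2 fold change of -5.04 ± 0.18. The third classical chain, H2-Eb1, was at 1794 to 2420.3 CPM (median 2039.7) and 24.5 to 64.3 CPM (median 29.5), a log2 fold change of -5.91 ± 0.25. The chains were thus expressed by both cells, without overlap, and far more in B cells. Because these are bulk libraries, fewer cells of a type and less RNA per cell cannot be told apart. Per kilobase of exon Cd74 was the highest of the listed genes in B cells, at 5536 CPM per kb against 1412 for H2-Ab1, and in monocytes it stood at 279 against 46.5.

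Within the monocytes, replicate 7 held the highest level of H2-Aa, H2-Ab1, H2-Eb1 and Cd74, at 121, 191, 64.3 and 559 CPM, while the other 5 ranged from 59.8 to 77.5, 89.4 to 127, 24.5 to 32.6 and 375 to 499 CPM. Cd79a in that library was 2.20 CPM, the highest of the monocyte libraries, against at least 1388 CPM in every B cell library. The summed B cell markers were highest in replicate 4, at 19.0 CPM. The summed NK cell markers were highest in replicate 7, at 43.3 CPM against 3.32 to 18.7 CPM in the other 5. The 7 dendritic cell markers summed to 144 CPM in replicate 7 and 126 to 158 CPM in the other 5, and 1 of them, Xcr1, was highest in replicate 7, at 3.35 CPM against 0.0956 to 2.34 CPM. The part of other cells in the class II levels of replicate 7 was not tested. Without replicate 7 the log2 fold changes were -5.23 for H2-Aa and -6.19 for H2-Eb1.

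The accessory class II genes were graded. H2-DMa was at 185 to 256 CPM (median 230.4) in B cells and 62.0 to 97.3 CPM (median 84.0) in monocytes, a log2 fold change of -1.47 ± 0.12. H2-DMb1 was at 74.7 to 112 CPM (median 86.0) and 37.0 to 56.7 CPM (median 41.4), a log2 fold change of -1.01 ± 0.13, at the threshold, and the call was lost in 6 of the 12 fits that left out 1 library and with DESeq2, with its size factors and with total counts only. H2-DMb2 was at 518 to 716 CPM (median 634) and 5.21 to 10.9 CPM (median 6.57), a log2 fold change of -6.47 ± 0.20. By these counts monocytes had H2-DMa and H2-DMb1 but little H2-DMb2. How reads that match both H2-DMb1 and H2-DMb2 were counted is not given in the sources used here. The genes of the DM inhibitor were near 0 in monocytes, H2-Oa at 90.2 to 127 CPM (median 109) against 0 to 2.21 CPM (median 0.681), and H2-Ob at 661 to 704 CPM (median 667) against 1.65 to 5.86 CPM (median 2.56), with log2 fold changes of -7.03 ± 0.58 and -7.80 ± 0.31. H2-Eb2 was at 71.4 to 93.6 CPM (median 84.9) in B cells and 0 to 1.63 CPM (median 0.0122) in monocytes. Among the regulators, Ciita was at 422 to 642 CPM (median 539.5) in B cells and 24.1 to 54.7 CPM (median 39.9) in monocytes, a log2 fold change of -3.75 ± 0.18. Rfx5 was at 44.2 to 75.4 CPM (median 56.8) and 11.2 to 23.4 CPM (median 17.7), a log2 fold change of -1.74 ± 0.18. Rfxap was at a like level, at 5.74 to 17.2 CPM in monocytes and 5.95 to 19.7 CPM in B cells, and Rfxank was neither called nor at a like level (-0.87).

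Other class II genes went another way. Ctss, the cathepsin that trims the invariant chain, was at 1577 to 1880.0 CPM (median 1695) in monocytes and 458 to 626 CPM (median 551) in B cells, a log2 fold change of 1.64 ± 0.09. March8, a ubiquitin ligase that acts on class II and other membrane proteins, was at 9.56 to 27.1 CPM (median 14.9) and 0.194 to 1.63 CPM (median 0.776), a log2 fold change of 4.35 ± 0.46. March1, the ligase that removes class II from the surface of both cells, was at 154 to 219.9 CPM (median 177) and 158 to 329 CPM (median 193), with a 95% interval from -0.58 to 0.12. The protease was thus higher where its substrate Cd74 was lower, and the ligase March1 overlapped between the cells. In the 4 unstressed Ly6C-low monocyte libraries, when all 22 unstressed libraries were scaled together, mean levels were 455 CPM for H2-Aa and 1786 CPM for Cd74, between those of Ly6C-high monocytes and B cells, and in T cells 5.11 and 23.3 CPM.

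**Figure D5:**
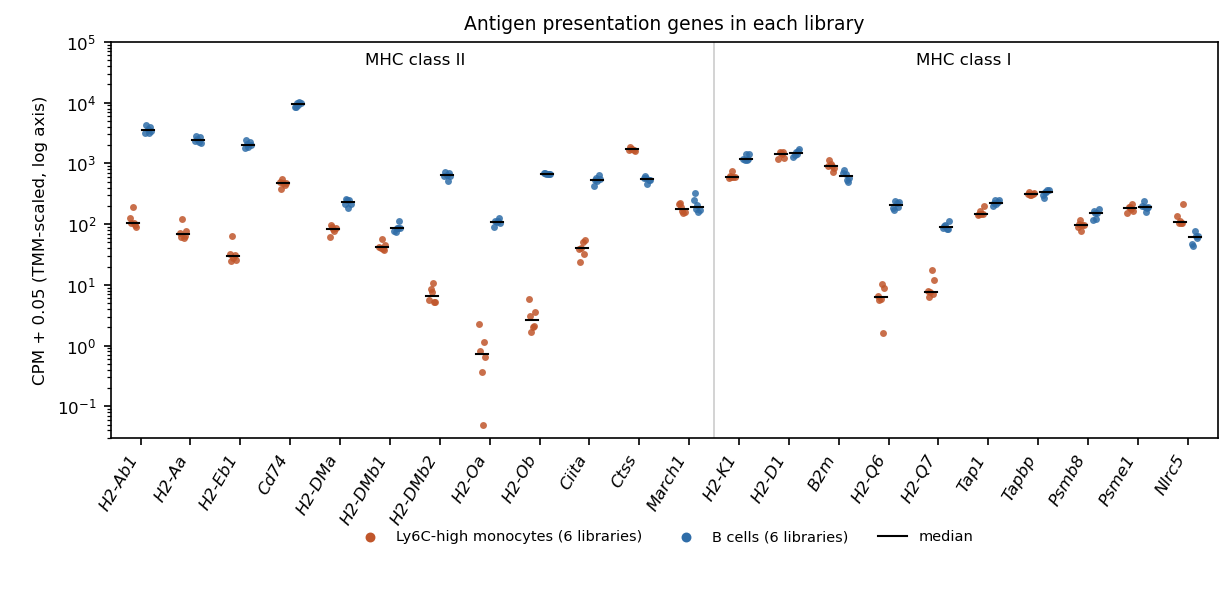
CPM plus 0.05 (TMM-scaled, log axis) of 12 MHC class II and 10 MHC class I genes in each of the 6 Ly6C-high monocyte and 6 B cell libraries, one point per library with the median as a bar. Class II chains are apart in every library, with monocyte replicate 7 the highest monocyte point for H2-Aa, H2-Ab1 and H2-Eb1, whereas H2-D1, Tapbp and Psme1 overlap between the cell types and Ctss is higher in monocytes.

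Of 25 class I genes 14 were at a like level, 56.0% against 26.5% of all genes, 2 were called higher in monocytes and 5 higher in B cells. All 14 were among the 22 members with at least 10 CPM in both cells, 63.6% against 57.8% of all such genes. H2-D1 was at 1196 to 1567 CPM (median 1439) in monocytes and 1283 to 1724 CPM (median 1502) in B cells, with a 95% interval of the log2 fold change from -0.29 to 0.12. B2m, the shared light chain, was at 712 to 1118 CPM (median 908) and 498 to 790.3 CPM (median 621), with an interval from 0.27 to 0.80. H2-K1 was at 583 to 738 CPM (median 596) and 1119.8 to 1420.2 CPM (median 1169), a log2 fold change of -0.99 ± 0.09, just short of a call. H2-D1 and B2m thus overlapped between the cells and H2-K1 did not. The peptide loading genes Tapbp and Tap1 were at a like level, Tapbp at 299.5 to 343 CPM and 271 to 366 CPM and Tap1 at 142 to 197 CPM and 199.8 to 252 CPM, and Tap2 was neither, with a log2 fold change of -0.83 ± 0.13. The immunoproteasome genes Psmb8, Psmb9 and Psmb10 and the activators Psme1 and Psme2 were all at a like level, with log2 fold changes from -0.61 for Psmb8 to 0.42 for Psme2. Calr, Erap1, Tapbpl, H2-T22 and H2-T23 were at a like level too, and Canx and H2-T24 were neither.

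The exceptions in class I were mainly genes outside the classical pair. H2-Q6 was at 171 to 243 CPM (median 209) in B cells and 1.55 to 10.1 CPM (median 6.16) in monocytes, a log2 fold change of -5.04 ± 0.36. H2-Q7 was at 82.2 to 112 CPM (median 90.1) and 6.33 to 17.8 CPM (median 7.63), a log2 fold change of -3.26 ± 0.23. H2-Q4 had a log2 fold change of -1.29 ± 0.14, H2-M3 of -1.37 ± 0.19 and Cd1d1, which presents lipids, of -2.83 ± 0.44. H2-Q4, H2-Q6 and H2-Q7 are close copies whose reads could be shared. Higher in monocytes were Nlrc5, at 103 to 211 CPM (median 110.3) against 43.1 to 76.7 CPM (median 61.5), and the chaperone Pdia3, at 296 to 382 CPM (median 317) against 122 to 186 CPM (median 161). Nlrc5 thus lay opposite to Ciita, and its call was lost without monocyte replicate 16, its highest library.

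Costimulatory genes, which tell a T cell how to read the presented peptide, were divided. Of 19 tested genes 5 were called higher in monocytes, 8 higher in B cells and 3 were at a like level. Cd80 was at 7.19 to 14.4 CPM (median 10.3) in monocytes and 0 to 0.516 CPM (median 0.313) in B cells, and Cd86 at 15.7 to 34.7 CPM (median 24.4) and 8.53 to 15.3 CPM (median 10.4), log2 fold changes of 4.99 ± 0.55 and 1.17 ± 0.21. Cd200r1 was at 4.99 to 8.60 CPM in monocytes with no read in B cells, at least 458-fold higher, while its ligand Cd200 was at 31.2 to 57.9 CPM (median 37.4) in B cells and 0 to 0.277 CPM (median 0.0122) in monocytes, a log2 fold change of -9.20 ± 0.56. A receptor and its ligand were thus on opposite sides. The B cell survival factors were higher in monocytes. Tnfsf13b, which encodes BAFF, was at 3.77 to 12.9 CPM (median 9.22) in monocytes and 0 to 1.64 CPM (median 0) in B cells, and Tnfsf13, which encodes APRIL and overlaps a read-through gene, was at 1.08 to 7.70 CPM with no read in B cells. Their receptors Tnfrsf13c and Tnfrsf13b were higher in B cells, with log2 fold changes of -10.98 and -2.14. Slamf6 was at 69.1 to 97.4 CPM (median 75.8) in B cells and 0.0717 to 2.31 CPM (median 1.55) in monocytes, and Icosl, the ligand of ICOS, was at 214 to 299 CPM and 30.8 to 45.0 CPM.

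Interferon response genes were mostly higher in monocytes of these unstressed mice. Of 21 genes 17 were called higher in monocytes, none higher in B cells and 2, Irf1 and Irf9, were at a like level, with a median log2 fold change of 2.27. Mx1, an antiviral GTPase, was at 157 to 233 CPM (median 203) in monocytes and 2.80 to 8.52 CPM (median 5.37) in B cells, a log2 fold change of 5.08 ± 0.24 (SE; edgeR adjusted p = 1.93e-11). Oas2, which makes an RNA-degrading signal, was at 54.1 to 116 CPM (median 76.9) and 1.74 to 6.04 CPM (median 2.76), a log2 fold change of 4.74 ± 0.31. No monocyte library of either gene fell into the B cell range. The smallest called differences were those of Rtp4, at 23.2 to 33.2 CPM (median 31.0) and 4.90 to 10.3 CPM (median 8.14), and Usp18, at 16.9 to 38.9 CPM (median 31.5) and 5.37 to 11.8 CPM (median 8.48), with log2 fold changes of 1.87 ± 0.20 and 1.82 ± 0.23. Ifnar1, a chain of the type I interferon receptor, was at a like level at 183 to 200.4 CPM and 98.8 to 132 CPM.

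Genes of glucose use were divided between the cells. Of 20 glycolysis genes 8 were called higher in monocytes, 3 higher in B cells and 6 were at a like level. Hk3, a hexokinase of myeloid cells, was at 63.7 to 107 CPM (median 81.6) in monocytes and 0.0316 to 3.10 CPM (median 0.607) in B cells, and Ldhb, a lactate dehydrogenase subunit, at 9.76 to 27.8 CPM (median 22.0) and 0 to 0.297 CPM (median 0.0158). The glucose transporters were higher in B cells, Slc2a3 at 35.3 to 52.5 CPM (median 42.4) against 2.49 to 8.70 CPM (median 5.67) and Slc2a1 at 35.9 to 63.2 CPM (median 53.0) against 19.7 to 29.0 CPM (median 23.8), with log2 fold changes of -2.95 ± 0.25 and -1.09 ± 0.16. Gapdh and Ldha were at a like level. Aldoc was low, at 3.48 to 9.85 CPM in B cells and 1.24 to 2.94 CPM in monocytes. Of 15 tested eicosanoid, lipid and iron genes 10 were called higher in monocytes and 2 higher in B cells. Hp, which encodes haptoglobin, was at 243 to 376 CPM (median 309) in monocytes and 0.0632 to 1.98 CPM (median 0.321) in B cells, and Hmox1, which breaks down heme, at 46.8 to 82.3 CPM (median 55.2) and 0.0215 to 0.695 CPM (median 0.183). Abca1, a cholesterol exporter, was at 270.2 to 446 CPM (median 299) in B cells and 8.23 to 31.1 CPM (median 15.6) in monocytes, a log2 fold change of -4.27 ± 0.33, and Tfrc, the transferrin receptor, at 21.3 to 38.4 CPM (median 31.8) and 3.68 to 6.19 CPM (median 4.16), a log2 fold change of -2.78 ± 0.20.

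Cytosolic ribosomal protein genes leaned toward B cells. Of 79 tested genes 44 were called higher in B cells, 1 higher in monocytes and 6 were at a like level, with a median log2 fold change of -1.03. They took 1.98% to 2.17% of counts in monocytes and 2.91% to 4.26% in B cells. The B cell shares were 4.10% to 4.26% in replicates 35, 38 and 41 and 2.91% to 3.10% in replicates 44, 47 and 50. Rpl12 was at 347 to 608 CPM (median 366) in B cells and 77.6 to 102 CPM (median 94.1) in monocytes, a log2 fold change of -2.16 ± 0.14, and Rps27 at 367 to 805 CPM (median 396) and 92.2 to 117 CPM (median 104), a log2 fold change of -2.14 ± 0.17. The top B cell value of both came from replicate 38. Rpl32, the smallest called difference, was at 416 to 823 CPM (median 471) and 232 to 279.8 CPM (median 263), with a 95% interval of the log2 fold change from -1.30 to -0.71. With library totals in place of TMM factors the direction held but 21 rather than 44 genes were called higher in B cells, with a median of -0.76. The exception was Rps27l, a paralog of Rps27, at 10.1 to 11.0 CPM (median 10.5) in monocytes and 2.86 to 7.59 CPM (median 5.02) in B cells. The many processed copies of these genes make their counts uncertain.

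Of 20 pan-leukocyte genes 11 were at a like level (55.0% against 26.5%), 4 were called higher in monocytes and 2 higher in B cells. Among members with at least 10 CPM in both cells the share was 11 of 18, 61.1% against 57.8% of all such genes. The 10 most abundant protein-coding genes at a like level, mitochondrial and ribosomal protein genes aside, were Actb, Eef1a1, Eef2, Myh9, Macf1, Msn, Coro1a, H2-D1, Tpt1 and Ly6e. Actb, which encodes beta-actin, was at 7331 to 8974 CPM (median 7905) in monocytes and 5453 to 6911 CPM (median 6324) in B cells, with a 95% interval from 0.19 to 0.53. Myh9, the heavy chain of non-muscle myosin, was at 2383 to 3136 CPM (median 2723) and 1875 to 3513 CPM (median 2957), with an interval from -0.36 to 0.21. Coro1a, which organises actin in leukocytes, was at 1119 to 1485 CPM (median 1247) and 1485 to 2199 CPM (median 1657), with an interval from -0.62 to -0.19. A like level does not mean no difference, since Actb was higher in every monocyte library than in any B cell library and Coro1a lower. Msn, which links actin to the membrane, was at 1525 to 1829 CPM and 1212 to 1445 CPM, and Macf1, which links actin to microtubules, at 1468 to 2086 CPM and 1307 to 2132 CPM. The translation factors Eef1a1 and Eef2 had log2 fold changes of -0.37 and -0.64, Tpt1 of -0.28, and Ly6e, a relative of the Ly6C genes, of -0.82.

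Ptprc, which encodes the pan-leukocyte antigen CD45, was at 1885 to 2687 CPM (median 2231) in monocytes and 948 to 1156 CPM (median 1059) in B cells, a log2 fold change of 1.08 ± 0.09, and the B220 isoform used in the sort cannot be told from others in gene counts. The pan-leukocyte genes called higher in B cells were Cd37, a tetraspanin, at 539.6 to 670.3 CPM (median 653) against 44.4 to 69.1 CPM (median 62.3), and Ptprcap, which binds CD45, at 29.8 to 42.4 CPM (median 38.2) against 0.0485 to 0.884 CPM (median 0.213). Lcp2, which encodes the adaptor SLP-76 and pairs in function with the B cell adaptor Blnk, was at 254 to 338 CPM (median 263) in monocytes and 0.0954 to 1.35 CPM (median 1.03) in B cells, a log2 fold change of 8.17 ± 0.34. Lcp2 and Blnk thus lay on opposite sides. The like-level members included Lcp1, Dock2, Was, Fermt3, Cd53 and Lsp1.

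The other unstressed libraries show where the called genes were also expressed. Of 1960 genes called higher in Ly6C-high monocytes with at least 10 CPM there, 1449 (73.9%) stood at 50% or more of that level in the 4 Ly6C-low monocyte libraries and 420 (21.4%) did so in the 6 T cell libraries. Of 1678 genes called higher in B cells with at least 10 CPM there, 1100 (65.6%) stood at 50% or more of that level in T cells and 467 (27.8%) did so in Ly6C-low monocytes. The same share was not counted for all genes with at least 10 CPM, so these percentages have no background to be read against. Spi1 and Csf1r were thus seen in Ly6C-low monocytes too, at mean levels of 423 and 1788 CPM, whereas F13a1, the A chain of coagulation factor XIII, averaged 2292 CPM in Ly6C-high and 17.9 CPM in Ly6C-low monocytes. Ets1, at 1235 to 1333 CPM in B cells and 2.30 to 8.40 CPM in monocytes, was at 1377 CPM in T cells, whereas Pax5 was at 0.685 CPM there. These levels are descriptions of other libraries, and no test was made of them.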

How the data were processed

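Blood Ly6C-high monocytes and B cells of unstressed mice were sorted, and RNA was made into stranded total RNA libraries and sequenced. Per the study's methods, the authors aligned reads to mm10 with HISAT2 and counted them with HTSeq on Ensembl genes, and their notes name DESeq2. They deposited raw counts per gene, in 1 table of 52636 genes for 70 libraries, with no normalization. The strand option and the handling of duplicates and multiply matching reads are not given in the sources used here, so overlapping, antisense and near-identical genes are uncertain (57 of the 159 genes chosen by rule overlap another tested gene). Names and coordinates came from GENCODE M21 (GRCm38) and promoters from RefSeq (GRCm38.p6).

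The 12 libraries were fitted with edgeR 4.0.16 (R 4.3.3, TMM, filterByExpr, robust quasi-likelihood F test, cell type as the only term), after a test on simulated data. In that test edgeR called 116 of 200 changed genes and 3 unchanged genes, so changed genes can be missed. DESeq2 called 140 and 21 on the same simulated counts. The rule named the 5 largest changes in each direction at 100 CPM or more, the 10 most abundant like-level genes, and in each list the largest and smallest calls and those against the majority, with all MHC genes. Members, lists and rule were chosen with earlier results of these data known, and genes named outside the rule, such as Irf8, Ikzf1, Mbp and Tlr13, were chosen after their values were seen. Alternatives were DESeq2 1.42.0, other scalings, filters, thresholds and samples, and thinning. The counting intervals of the ratios, and the floors, cover counting error only. Some members of the lists are not reported here.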

Additional observations from a re-analysis of the deposited data

Results flagged for a closer look

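Of 290 groups of 6 libraries examined, 20 held 1 library farther from the rest than Dixon's 95% limit, and chance gives about 1 in 20. B cell replicate 38 accounted for 9. It held the highest B cell levels of Cybb (260 CPM, others 168 to 191), Coro1a (2199, others 1485 to 1697), Eef1a1 (5537, others 3417 to 4206), Rpl12 (608, others 347 to 417), Cd79b (1439.9, others 1013 to 1149), Rpl32 (823, others 416 to 515), Tpt1 (1822, others 1138 to 1382) and Rps27 (805, others 367 to 409.9), and the highest summed red cell markers (7558 CPM, others 1275 to 3337). It also had the lowest TMM factor, 0.700, and the highest mitochondrial share of the B cell libraries, 18.4%, and their part in these levels was not tested.

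Ly6C-high monocyte replicate 7 accounted for 3, the class II genes H2-Aa (121 CPM, others 59.8 to 77.5), H2-Eb1 (64.3, others 24.5 to 32.6) and H2-Ab1 (191, others 89.4 to 127). The other 8 were spread over libraries. Monocyte replicate 16 was highest for Calr (485 CPM) and Nlrc5 (211 CPM), monocyte replicate 10 highest for H2-K1 (738 CPM) and monocyte replicate 13 lowest for Tec (44.8 CPM). Among B cells, replicate 44 was highest for Abca1 (446 CPM), replicate 41 for Oas2 (6.04 CPM) and replicate 47 for H2-DMb1 (112 CPM), and replicate 35 was lowest for Nod1 (46.0 CPM).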

How the results depend on the processing

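No gene called in the 12 libraries changed direction under the alternatives run. With total counts only, the median log2 fold change of the ITAM adaptor list moved from -0.27 to 0.0013, and that of all tested genes from -0.029 to 0.22. Thy1, not called, ranged from -0.69 to 1.13 in log2 fold change when 1 library was left out. Counts moved by over 1.5 times in these cases. With total counts only, 1 Tec kinase (3 in the fit reported) and 22 ribosomal protein genes (45) were called. Without a low-count filter, 1 Tec kinase was called, and with all 70 libraries in the fit, 3 Src kinases (5). With the adjusted p alone, 4072 genes were higher in B cells, and 20 class I (7), 17 pan-leukocyte (6) and 74 ribosomal protein genes were called. With edgeR's test against a 2-fold change, 1570 genes were higher in B cells, and 1 Tec kinase, 7 glycolysis genes (11) and 19 ribosomal protein genes were called. With a bound of 1.5-fold, 1670 genes were at a like level, 1660 of them with at least 10 CPM in both cells. Beyond these alternatives' own construction, the cause was not tested.

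Leaving out each library in turn gave 2803 to 3028 genes higher in monocytes and 2394 to 2700 higher in B cells. Calls near a log2 fold change of 1 were lost without single libraries. H2-DMb1 lost its call without B cell replicates 41 or 47 or monocyte replicates 1, 4, 10 or 13, Tec without B cell replicates 35, 41 or 50 or monocyte replicate 13, Btk without B cell replicate 38 or monocyte replicate 10, Ms4a4c without B cell replicates 44, 47 or 50 or monocyte replicates 1, 4 or 7, Rpl32 without B cell replicates 38 or 41 or monocyte replicates 13 or 16, Rps27l without B cell replicates 41, 44 or 50, and Fcgr2b without monocyte replicate 1. H2-K1 gained a call without B cell replicates 35, 38, 44 or 47 or monocyte replicate 10. The methods describe a single stain for all sorted cell types, so libraries of the 2 groups may come from the same mice. No paired analysis was made, and the tests used here ignore any such pairing. The labels give the 2 groups no shared replicate number. The condition labels do repeat in the same order of library numbers in both cell types, which could reflect a pairing by mouse. Summed red cell markers were lowest in monocyte replicate 1 and B cell replicate 35 and highest in monocyte replicate 4 and B cell replicate 38. Whether these libraries share mice was not tested. Depth limits genes under a few CPM.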

Other observations

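Among 7465 genes examined for spread within Ly6C-high monocytes, the neutrophil-type genes S100a9, Ngp, Lcn2, Ltf and S100a8 were all among the 9 most variable, with coefficients of variation of 0.839, 0.804, 0.722, 0.690 and 0.657, where the median gene had 0.165. Top2a, a topoisomerase of dividing cells, was at 1.89 to 33.0 CPM in those libraries, with a coefficient of variation of 0.790.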
